A study of Homo sapiens with 10 samples.

Results

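The 10 genes described here encode subunits of the transcription factor NF-kB and transcripts that NF-kB is known to induce: NFKB1, NFKB2, RELA, RELB, NFKBIA, TNFAIP3, BIRC3, ICAM1, IER3 and TNFAIP2. They were taken by gene symbol, from a list drawn up with earlier results of these data known, and all 10 were found among the 18144 genes of the table. The genes were measured by RNA-seq in 3D spheroids grown from PC-3 (a cell line from a bone metastasis of human prostate cancer), with the genotype given as WT. The libraries were 7: untreated spheroids on days 0, 3 and 7, spheroids on days 3 and 7 after topotecan was added as a bolus on day 0 (CONV-TOPO), and spheroids on days 3 and 7 under the extended exposure regimen (EE-TOPO), in which a fraction of the bolus was added daily up to the same weekly dose. Topotecan is an inhibitor of DNA topoisomerase I. Part of the medium was exchanged on days 3 and 5, in wells with and without drug. The study asked how the daily regimen differed from the bolus in its effect on these cells. Each condition and day is 1 library, and how many spheroids it pooled is not given in the sources used here, so the data hold no replicate of a condition. The 3 samples of day 1 are not analysed here.

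NF-kB is a family of dimers. In resting cells the RELA and NFKB1 products are held in the cytoplasm by inhibitors of the IkB class, of which the NFKBIA product is the best known. Upon signals such as TNF, interleukins or DNA damage, the IKK kinase complex marks the inhibitor for destruction, and the freed dimer enters the nucleus. A second, non-canonical branch processes the NFKB2 precursor and works through RELB. NFKBIA and TNFAIP3 are induced by the dimer itself and shut the pathway down again, which gives negative feedback, and NFKB1, NFKB2 and RELB are also target genes of the family. PC-3 cells are a widely used example of a prostate cancer line with constitutive NF-kB activity.

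Since most members are known as targets of NF-kB itself, the DNA before their starts was searched for the kappa B consensus, the 10-base motif bound by NF-kB dimers. RefSeq promoter sequences of GRCh38.p14 were matched for 8 members by symbol, and the 250 bases before each annotated start were searched on both strands. RELB and IER3 had no entry. At least 1 match was found for 5 of the 8 members (NFKBIA, TNFAIP3, NFKB1, NFKB2 and BIRC3), against 6.28% of the 27305 genes with an entry. RELA, ICAM1 and TNFAIP2 held no match, which says only that these letters are not in this window. The stretches below show in capitals the matches of the feedback inhibitors, of NFKB1 and BIRC3, and a part of those of NFKB2, read 5′ to 3′ on the strand of the gene.
NFKBIA, chr14:35404806-35404845, minus strand: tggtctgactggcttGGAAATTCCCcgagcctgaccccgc
TNFAIP3, chr6:137867188-137867217, plus strand: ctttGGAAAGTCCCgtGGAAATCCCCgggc
NFKB1, chr4:102501300-102501329, plus strand: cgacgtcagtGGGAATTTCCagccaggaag
NFKB2, chr10:102394462-102394490, plus strand: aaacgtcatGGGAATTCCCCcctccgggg
NFKB2, chr10:102395674-102395703, plus strand: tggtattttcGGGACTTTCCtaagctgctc
BIRC3, chr11:102317270-102317373, plus strand: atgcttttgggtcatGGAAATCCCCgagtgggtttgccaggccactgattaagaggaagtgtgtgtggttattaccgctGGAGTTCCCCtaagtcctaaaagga
The NFKBIA match began 81 bases before the start. TNFAIP3 held a pair of matches, which began 67 and 55 bases before it, and BIRC3 a pair at 199 and 135 bases. The single NFKB1 match began at 49 bases. The first NFKB2 stretch joins a pair of overlapping matches that began 107 and 106 bases before a start, and the second began 21 bases before another annotated start of the same gene. NFKB2 held further matches, not printed, at 78 bases before the first of these starts and at 176 bases before the other. The TNFAIP3 and NFKB2 stretches reach an exon annotated by GENCODE for the same gene. A match is a description of the sequence, and no binding was measured.

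Depth estimated from the smallest steps of the values was about 15028200 to 22477900 reads a library, so that 3 reads correspond to 0.133 to 0.200 CPM (reads per 1000000 reads). Every member lay far above this, with about 353 reads as the lowest value of any member (BIRC3). The epithelial markers of PC-3 were present in every library, with KRT8 at 624 to 1169 CPM and CDH1 at 223 to 327 CPM. Of the 8 leukocyte markers 6 were measured, and their summed level of 69.6 to 134 CPM was nearly all CD68 (65.7 to 128 CPM), while PTPRC stayed at or under 0.489 CPM and CSF1R at or under 0.222 CPM. Endothelial markers summed to 38.5 to 83.9 CPM (3 of 4 measured), nearly all from KDR at 15.7 to 63.6 CPM and PECAM1 at 16.8 to 32.7 CPM, with VWF at or under 0.158 CPM. The 5 fibroblast markers summed to 47.6 to 84.4 CPM, nearly all from COL1A1 at 46.6 to 83.0 CPM, with DCN at or under 0.264 CPM. The scaling factors of the trimmed mean of M values (TMM), which assumes that most genes do not change, were 0.883 and 0.901 in the CONV-TOPO and EE-TOPO libraries of day 7 and 0.981 to 1.09 in the other 5. The median log2 fold change of all genes on day 7 was -0.25 with library totals and -0.05 with TMM.

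**Figure D1:**
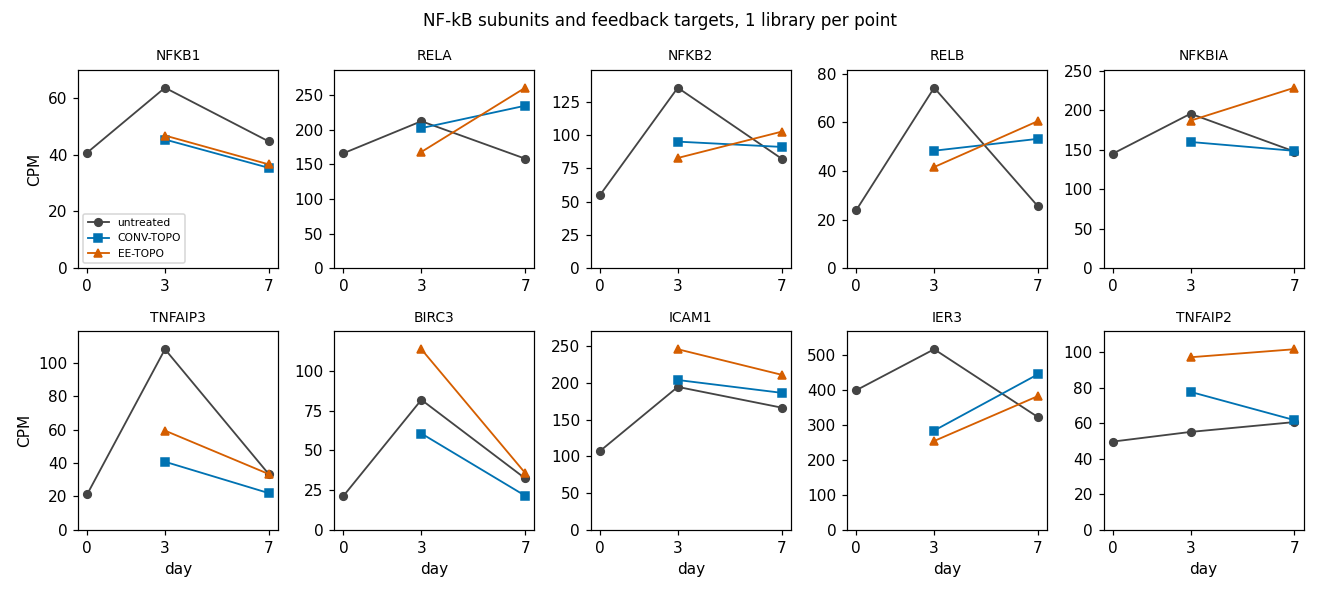
Level of each member in CPM (vertical axes, from 0) by day (horizontal axes), with 1 library per point. Untreated spheroids are circles, CONV-TOPO squares and EE-TOPO triangles; TNFAIP3, RELB, NFKB2, NFKB1 and IER3 were highest in the untreated day 3 library.

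In untreated spheroids the members were higher on day 3 than on day 0, and most were lower again on day 7. All 10 members had a higher CPM on day 3, and 4 of the 10 were at least 2-fold higher, while 1.81% of the 9943 genes with a mean of at least 10 CPM were. The median log2 ratio of those genes was 0.055. With TMM the TNFAIP2 ratio was 1.05 (0.959 to 1.14). From day 3 to day 7, 9 of 10 were lower and 3 were at least 2-fold lower, against 0.882% of genes, whose median log2 ratio was -0.005. These are ratios between single libraries, and the intervals given with them are 95% intervals of counting error alone. In whole spheroids, a change in the share of some cells and a change in the RNA of each cell cannot be told apart.

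Among the subunits, the pair of the non-canonical branch stood out. RELB, its transcription-activating partner (chr19:45001464-45038193), was at 23.9 CPM on day 0, 74.2 on day 3 and 25.5 on day 7, so the day 3 library was 3.10-fold above day 0 (2.79 to 3.45). NFKB2, whose precursor holds RELB back until it is cleaved (chr10:102394110-102402530), was at 54.8, 135 and 82.2 CPM, a ratio of 2.47 (2.30 to 2.65) on day 3. Unlike RELB it was still 1.5-fold (1.39 to 1.62) above day 0 on day 7. The subunits of the classical dimer moved less. NFKB1 (chr4:102501359-102617303) was at 40.6, 63.5 and 44.6 CPM, 1.56-fold higher on day 3 (1.43 to 1.71). RELA, which carries the activation domain of the classical dimer (chr11:65653596-65662973), was at 166, 212 and 158 CPM and 1.28-fold higher on day 3 (1.22 to 1.34).

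The 2 feedback inhibitors differed in how far day 3 stood above day 0. TNFAIP3, a ubiquitin-editing enzyme that ends signalling upstream of IKK (chr6:137867259-137883313), was at 21.2 CPM on day 0, 108 on day 3 and 33.3 on day 7. Its day 3 ratio of 5.10 (4.59 to 5.68) was the largest of the members in this comparison. NFKBIA (chr14:35401514-35404750) was at 145, 196 and 148 CPM, a ratio of 1.35 (1.28 to 1.42) on day 3, and on day 7 its ratio to day 0 was 1.02 (0.968 to 1.07). The day 3 library was thus the highest untreated library for both.

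Among the other targets, BIRC3, a ubiquitin ligase that blocks cell death at TNF receptors (chr11:102317484-102339404), was at 21.4, 81.8 and 32.3 CPM, 3.82-fold higher on day 3 (3.43 to 4.27). ICAM1, an adhesion molecule that leukocytes bind (chr19:10271120-10286616), was at 107, 194 and 166 CPM, and its ratio to day 0 was 1.82 (1.72 to 1.92) on day 3 and 1.55 (1.47 to 1.64) on day 7. IER3, an immediate early stress gene (chr6:30743199-30744548), was at 400, 518 and 323 CPM. It was 1.29-fold higher on day 3 (1.26 to 1.33) and, alone among the members with RELA, had a day 7 value below day 0. TNFAIP2, a TNF-induced gene of membrane protrusions (chr14:103123461-103137440), was at 49.7, 55.2 and 60.8 CPM and was the single member that did not come down after day 3.

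Per kilobase of the transcript used for length, the members' mean levels over the 7 libraries ranged from 301 CPM per kb for IER3 to 7.62 for BIRC3. NFKBIA followed IER3 at 111, then RELA at 79.5, ICAM1 at 63.3, NFKB2 at 30.5, RELB at 20.7, TNFAIP2 at 15.4, NFKB1 at 11 and TNFAIP3 at 9.75. The ratio of RELB to RELA within a library, which does not depend on scaling, was 0.161 on day 0, 0.390 in untreated day 3 and 0.180 in untreated day 7. In the 4 treated libraries it lay between 0.253 and 0.277, above both untreated day 0 and day 7 and below untreated day 3, with no overlap of counting intervals. The ratio of NFKB2 to NFKB1 was 1.81 on day 0, 2.87 on day 3 and 2.48 on day 7 without drug. It was 2.82 and 2.38 on day 3 under CONV-TOPO and EE-TOPO, and 3.47 and 3.77 on day 7, the highest values of the 7 libraries. NFKB1 spans 115944 bases and NFKB2 8420, and no correction for gene span was made in these ratios. TNFAIP3 relative to NFKBIA was 0.185 in untreated day 3 and between 0.0488 and 0.106 in the other 6 libraries. BIRC3 relative to NFKBIA was highest in EE-TOPO day 3 at 0.138, and between 0.0327 and 0.0354 in both treated day 7 libraries and untreated day 0.

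**Figure D2:**
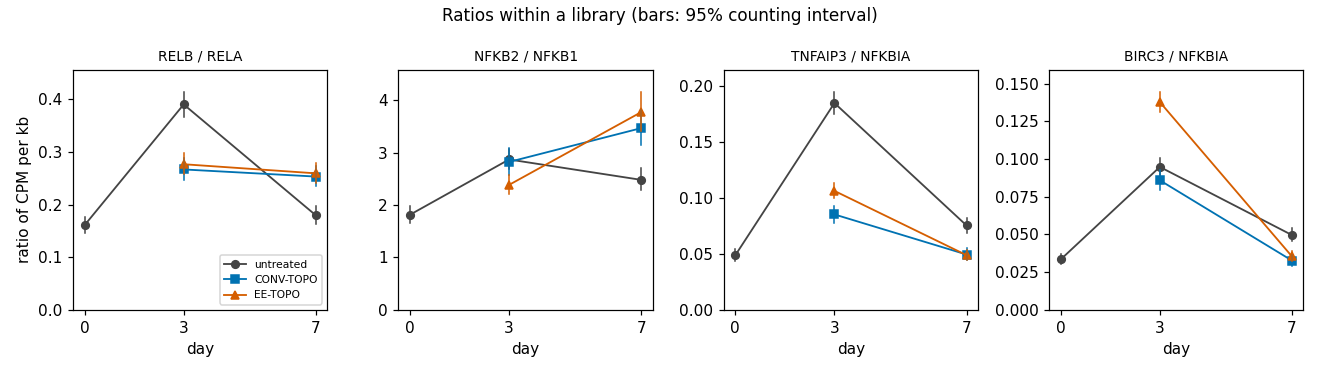
Ratio of the CPM per kb of 2 members within each library (vertical axes, from 0) by day; points are libraries and bars are 95% counting intervals. RELB relative to RELA lay between 0.253 and 0.277 in the 4 treated libraries.

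On day 3 the treated spheroids held less TNFAIP3 and less of most subunits than the untreated spheroids of that day, and more TNFAIP2. NFKBIA, the other feedback inhibitor, was below untreated by a smaller margin than TNFAIP3. Both regimens were set against the same untreated libraries, so their values are not independent. Under CONV-TOPO, 8 of 10 members were below the untreated day 3 library and TNFAIP3 alone was at least 2-fold lower, against 0.237% of genes. Under EE-TOPO 7 were below it and IER3 alone was at least 2-fold lower, against 0.403% of genes. The median log2 ratio of the genes compared was 0.014 under CONV-TOPO and 0.009 under EE-TOPO. TNFAIP3 was at 40.8 CPM under CONV-TOPO and 59.4 under EE-TOPO, ratios of 0.377 (0.344 to 0.413) and 0.550 (0.513 to 0.589) to untreated. IER3 was at 285 and 255 CPM, ratios of 0.550 (0.530 to 0.570) and 0.492 (0.476 to 0.508). RELB was at 48.4 and 41.6 CPM, NFKB2 at 94.9 and 82.7 CPM, and NFKB1 at 45.3 and 46.7 CPM. For these 3 subunit genes both treated values lay between untreated day 0 and untreated day 3. RELA was at 202 and 168 CPM, ratios of 0.953 (0.909 to 0.999) and 0.791 (0.757 to 0.827) to untreated day 3. NFKBIA was at 160 and 187 CPM, ratios of 0.817 (0.776 to 0.860) and 0.955 (0.914 to 0.999).

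The remaining targets did not share that direction. TNFAIP2 was at 77.8 CPM under CONV-TOPO and 97.3 under EE-TOPO, 1.41-fold (1.29 to 1.53) and 1.76-fold (1.64 to 1.90) above untreated. ICAM1 was at 204 and 246 CPM, ratios of 1.05 (0.999 to 1.1) and 1.26 (1.21 to 1.32). BIRC3 lay on either side of untreated, at 60.6 CPM under CONV-TOPO and 114 under EE-TOPO, ratios of 0.741 (0.682 to 0.804) and 1.39 (1.30 to 1.48).

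The difference on day 3 was tested with limma against the spread between both regimens, each lone untreated library being taken to vary like the treated ones, on log2 TMM-scaled CPM, whereas the ratios above are of CPM as deposited. No member passed an adjusted p of 0.05 (Benjamini-Hochberg over 14836 genes), where 0.0135% of genes, 2 in number, did. At an unadjusted p under 0.05 the counts were 6 of 10 members and 11.5% of all genes. The smallest adjusted p of a member was 0.136, for IER3, with a log2 fold change of -0.997 ± 0.16 (SE), and IER3 passed when either treated day 7 library was left out (adjusted p = 0.0360 and 0.0355). All of these values rest on the 1 untreated day 3 library. With untreated day 0 in its place, a choice made after seeing the data, 4 members passed: BIRC3, ICAM1 and RELB were then higher under treatment, by 1.77, 0.92 and 0.74 on the log2 scale, and IER3 lower, at -0.71.

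On day 7 the subunits RELB, RELA and NFKB2 and the targets IER3 and ICAM1 were higher under both regimens than in untreated spheroids, whereas NFKB1, TNFAIP3 and BIRC3 were not. RELB was at 53.2 CPM under CONV-TOPO and 60.6 under EE-TOPO against 25.5 CPM in untreated. It was the 1 member at least 2-fold higher, by 2.09 (1.87 to 2.34) and 2.38 (2.13 to 2.66), where 3.89% and 5.06% of genes were. On the TMM scale RELB was again the 1 member of the 10 at that level, where 8.67% and 9.52% of genes were. RELA was at 234 and 260 CPM against 158, and both treated day 7 values were above every other library. NFKB2 was at 91.0 and 102 CPM against 82.2. IER3 was at 446 and 383 CPM against 323. ICAM1 was at 186 and 211 CPM against 166. In each of these 5 genes both treated libraries were above the untreated library of the day. Against untreated day 0, at 400 CPM, IER3 was higher under CONV-TOPO and lower under EE-TOPO on CPM as deposited.

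The limma fit called 5 of the 10 members higher on day 7 and none lower, in a comparison in which 38.8% of all genes were called. The log2 fold changes were 1.36 ± 0.17 (SE) for RELB (adjusted p = 0.000655), 0.88 ± 0.16 for RELA (0.00268), 0.59 ± 0.16 for IER3 (0.0166), 0.49 ± 0.15 for ICAM1 (0.0301) and 0.46 ± 0.15 for NFKB2 (0.0365). RELB and RELA passed under every alternative run for this comparison. With library totals in place of TMM they were called at 1.13 and 0.64, and the other 3 did not pass. With the trend of each library with gene span removed, RELB and RELA again passed, while IER3, the shortest gene of the set, was at 0.03 (adjusted p = 0.893). All genes were called 2768 times higher and 2987 times lower with TMM, and 1810 times higher and 4421 times lower with library totals.

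The other 5 members did not pass on day 7. NFKBIA was at 149 CPM under CONV-TOPO and 229 under EE-TOPO against 148 in untreated, a log2 fold change of 0.55 ± 0.22 (adjusted p = 0.0729). On that TMM scale the CONV-TOPO library was 1.2-fold and the EE-TOPO library 1.80-fold above untreated, and on CPM as deposited 1.01-fold and 1.55-fold. TNFAIP2 was at 61.9 and 102 CPM against 60.8, with 0.62 ± 0.25 (adjusted p = 0.0824). Its ratios were 1.21 and 1.96 on the TMM scale and 1.02 and 1.68 on CPM as deposited. TNFAIP3 was at 22.0 and 33.4 CPM against 33.3, BIRC3 at 21.5 and 35.7 against 32.3, and NFKB1 at 35.3 and 36.5 against 44.6. For TNFAIP3, NFKB1 and BIRC3 the log2 fold changes were -0.06, -0.07 and 0.01, with adjusted p from 0.739 to 0.978.

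**Figure D3:**
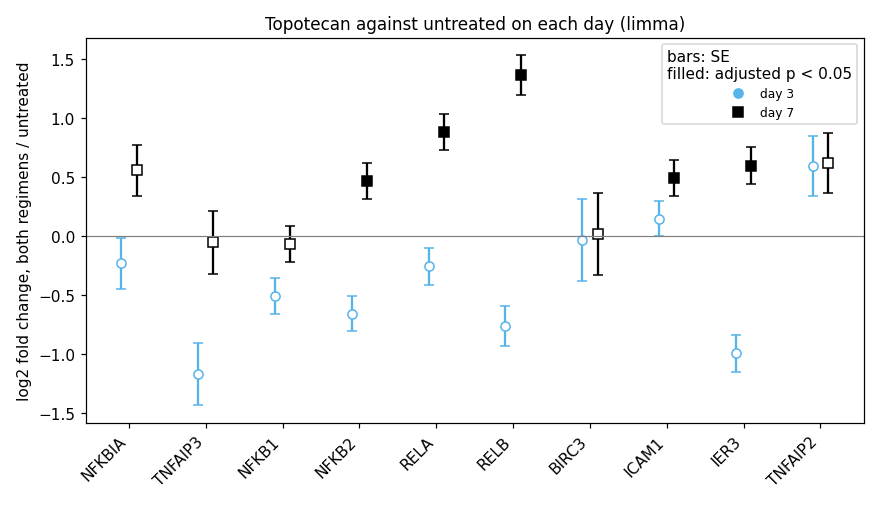
Log2 fold change of both regimens against untreated (vertical axis) for each member on day 3 (circles) and day 7 (squares), from limma with TMM scaling; bars are standard errors, and filled points passed an adjusted p of 0.05. On day 7 RELB, RELA, IER3, ICAM1 and NFKB2 passed, and on day 3 no member did.

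The effect of treatment differed between the days for 4 members, where 28.5% of all genes differed. The day 7 effect exceeded the day 3 effect by 2.13 ± 0.24 (log2, SE) for RELB (adjusted p = 0.00177), 1.59 ± 0.22 for IER3 (0.00224), 1.14 ± 0.22 for RELA (0.00631) and 1.13 ± 0.21 for NFKB2 (0.00580). With TMM all 10 members had a positive difference, with a median of 0.95 against -0.03 over all genes tested. The smallest were 0.050 for BIRC3 and 0.026 for TNFAIP2. The sign changed for 2 members with library totals, and for 6 with untreated day 0 in place of untreated day 3. Both the treated and the untreated libraries entered the difference. From day 3 to day 7, log2 TMM-scaled RELB moved by -1.52 in untreated spheroids, 0.41 under CONV-TOPO and 0.80 under EE-TOPO. IER3 moved by -0.69, 0.93 and 0.86, RELA by -0.44, 0.49 and 0.91, and NFKB2 by -0.73, 0.22 and 0.58. For TNFAIP3 the moves were -1.68, -0.59 and -0.54, downward in all 3 arms, and for BIRC3 -1.33, -1.18 and -1.37, nearly equal in all 3. With untreated day 0 in place of untreated day 3, RELB (0.62, adjusted p = 0.0853) and NFKB2 (-0.079, adjusted p = 0.807) no longer passed, while RELA (0.87) and IER3 (1.30) did, and BIRC3 passed in the opposite direction (-1.75, adjusted p = 0.0258).

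Between the regimens, by counting intervals that excluded 1, NFKBIA, TNFAIP3, BIRC3, ICAM1 and TNFAIP2 were higher under EE-TOPO than under CONV-TOPO on both days, and IER3 was lower on both. The share of all genes that met this rule was not taken, so these members have no background to stand beside. On day 3 the daily fractions had not yet reached the bolus dose, so schedule and dose given so far differed together. No member reached a 2-fold difference on either day, where 0.334% of genes on day 3 and 0.393% on day 7 did. BIRC3 had a ratio of 1.87 (1.74 to 2.02) on day 3 and 1.67 (1.45 to 1.91) on day 7. TNFAIP3 was 1.46-fold (1.32 to 1.61) and 1.52-fold (1.32 to 1.74) higher, at different levels on the 2 days but by nearly the same ratio. For NFKBIA the ratio was 1.17 (1.11 to 1.23) on day 3 and 1.54 (1.46 to 1.62) on day 7, and for TNFAIP2 it was 1.25 (1.17 to 1.34) and 1.65 (1.52 to 1.78). ICAM1 was 1.21-fold (1.15 to 1.26) and 1.13-fold (1.08 to 1.19) higher. IER3 had ratios of 0.895 (0.860 to 0.931) and 0.860 (0.831 to 0.890).

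The subunits showed no such common direction. NFKB2, RELA and RELB were lower under EE-TOPO on day 3, with ratios of 0.871 (0.813 to 0.934), 0.830 (0.791 to 0.871) and 0.861 (0.781 to 0.95), and higher on day 7, with 1.13 (1.05 to 1.21), 1.11 (1.06 to 1.16) and 1.14 (1.04 to 1.25). NFKB1 was at 1.03 on each day, with intervals that spanned 1 (0.936 to 1.14 and 0.919 to 1.16).

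In the limma fit with treatment and day as terms, which takes the variation of an effect between days as its error, no member passed in any of the 3 comparisons, nor did any other gene: 0% of 14836 were called for EE-TOPO against untreated, for CONV-TOPO against untreated and for EE-TOPO against CONV-TOPO, with 527, 257 and 134 genes at an unadjusted p under 0.05 and 1 member in each. The smallest adjusted p of any gene was 0.907, 0.913 and 1.00. Between the regimens BIRC3 had the largest log2 fold change of the members, 0.78 ± 0.22 (SE, unadjusted p = 0.0130), followed by TNFAIP3 at 0.53 ± 0.34, TNFAIP2 at 0.49 ± 0.23, NFKBIA at 0.39 ± 0.29 and ICAM1 at 0.20 ± 0.23. With only the 4 treated libraries in the fit, BIRC3 passed (adjusted p = 0.00969, 80 genes called in all), with 1 value per regimen and day behind it.

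**Figure D4:**
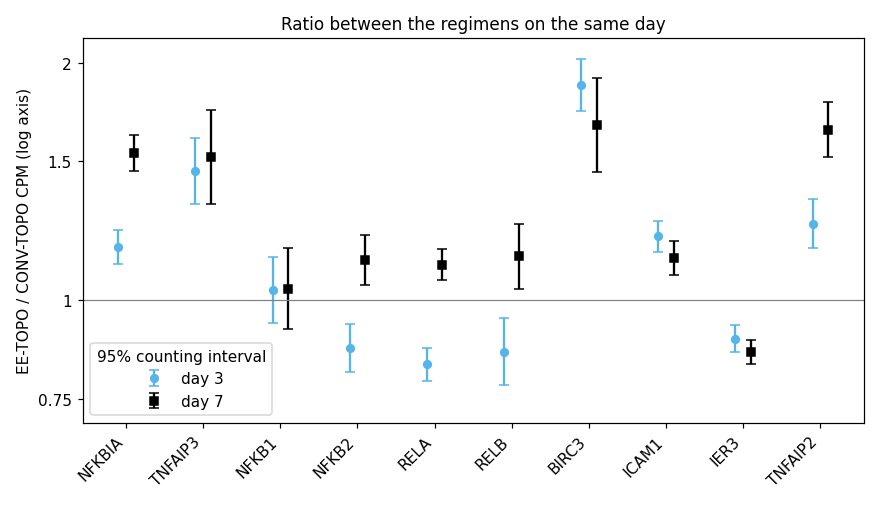
Ratio of CPM under EE-TOPO to CPM under CONV-TOPO (vertical axis, log scale) for each member on day 3 (circles) and day 7 (squares); bars are 95% counting intervals. BIRC3, TNFAIP3, NFKBIA, TNFAIP2 and ICAM1 lay above 1 on both days and IER3 below 1 on both.

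The genes whose course over the 7 libraries was most like that of NFKBIA, among 1923 genes with a mean of at least 5 CPM and an SD of at least 0.5 on the log2 scale, were KRT17 (Pearson r = 0.94), CLDN14 (0.92), SDSL (0.89), PLEK2 (0.89) and CEBPB (0.88). KRT17 is a keratin of stressed epithelium, at 1.89 to 21.1 CPM, and CEBPB a transcription factor of inflammatory genes, at 54.0 to 172 CPM. Within the members, r with NFKBIA ranged from 0.13 for NFKB1 to 0.74 for RELB and RELA. These values describe 7 libraries, which differ in depth and composition as given above, and each library's depth and composition is shared by the genes compared.

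The rest of the pathway was described with 6 gene lists, whose counts on day 7 stand beside the 38.8% of all genes called in that comparison. The lists were chosen with earlier results of these data known, and some genes stand in more than 1 list. Their values were not taken with the trend with gene span removed. Under that setting 4577 genes were called on day 7, against 5755 without it. The list of 7 IkB proteins and relatives, REL included, gave 4 genes higher and 2 lower on day 7, 85.7% of the list. BCL3, a nuclear IkB protein that works with the NFKB1 and NFKB2 products, was at 56.6 and 64.9 CPM under CONV-TOPO and EE-TOPO against 25.6 in untreated (log2 fold change 1.45, adjusted p = 0.000586). NFKBIE and NFKBIB, further cytoplasmic inhibitors, rose by 1.07 and 0.58, and NFKBIL1 by 1.07. NFKBIZ, another nuclear IkB protein, was at 24.6 and 12.5 CPM against 184, a log2 fold change of -3.09 (adjusted p = 0.00159). REL, the remaining family subunit, was at 2.49 and 4.06 CPM against 11 (-1.32, adjusted p = 0.0133), the opposite direction to RELA and RELB. The list's median log2 fold change was 0.58 against -0.05 over all genes, and with library totals 3 were called higher and 2 lower.

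The 10 kinases that free or process NF-kB gave none higher and 4 lower on day 7, 40% of the list against 38.8% of all genes: CHUK, a catalytic IKK subunit (-0.83), MAP3K7, the kinase that activates IKK (-0.61), and its partners TAB2 (-0.47) and TAB3 (-1.01). IKBKG, the regulatory IKK subunit, was at 45.4 and 48.0 CPM against 41.8 and did not pass (adjusted p = 0.139). The list's median was -0.42, with library totals -0.65 and 5 called lower.

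The 22 adaptors, ubiquitin ligases and deubiquitinases were split, with 6 higher and 5 lower, 50% of the list. SHARPIN, a subunit of the linear ubiquitin ligase, was at 162 and 199 CPM against 81.7 (log2 fold change 1.37, adjusted p = 0.000454), and its partner RBCK1 rose by 0.95. TRADD, the adaptor of the TNF receptor, rose by 1.24, TRAF2 by 0.96, and TNIP2 and TNIP1, which bind the TNFAIP3 product, by 0.76 and 0.43. BIRC2, the close relative of BIRC3, fell by 0.53, XIAP by 0.44, TAX1BP1 by 0.59, and BTRC and FBXW11, the ligase subunits that mark IkB proteins for destruction, by 0.58 and 0.53. IRAK1, the most abundant gene of the list, was at 398 and 370 CPM against 436 (adjusted p = 0.785). TRAF1 was at 0.601, 15.9 and 1.68 CPM in untreated days 0, 3 and 7, and it passed for the difference between days, as did TRAF3 and TRAF5 in the other direction. With library totals 5 of the list were called higher and 8 lower.

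Among 20 ligands and receptors 17 were tested, with 6 higher and 1 lower on day 7, 41.2% of those tested against 38.8% of all genes. The 3 others, TNF, LTA and TLR4, were too low, with TNF at 0.0501 to 0.317 CPM over the 7 libraries. LTB, a ligand of the non-canonical branch, was at 24.0 and 37.7 CPM against 7.82 (log2 fold change 2.04, adjusted p = 0.000869), and its receptor gene LTBR was at 321 and 290 CPM against 243 (0.56). TNFRSF12A, which also feeds the non-canonical branch, rose by 1.13, TNFRSF1A, the main TNF receptor gene, by 0.95, TNFSF10 by 0.86 and IL1RN, which encodes a receptor antagonist, by 1.62. IL1RAP fell by 1.00. With library totals 4 were called higher and 1 lower.

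Of the 28 other target genes tested, 23 had a mean of at least 10 CPM over untreated days 0 and 3, and 11 of these were at least 2-fold higher on day 3 (1.81% of all genes at that level). From day 3 to day 7, 6 of 23 were at least 2-fold lower (0.882% of all genes). CXCL8, a neutrophil chemokine, was at 170, 1600 and 174 CPM on untreated days 0, 3 and 7, and at 228 and 312 CPM under CONV-TOPO and EE-TOPO on day 3. PTGS2, an inducible prostaglandin synthase, was at 5.56, 82.6 and 7.40 CPM without drug, and IL6 at 1.65, 29.2 and 2.94 CPM. PLAU, the urokinase gene, was at 701, 2464 and 834 CPM. The untreated day 3 library was the highest of all 7 libraries for these 4 genes, as it was for 5 of the members. On day 3, CXCL1 was the 1 gene of the lists that passed, at 142 and 113 CPM under CONV-TOPO and EE-TOPO against 380 in untreated (log2 fold change -1.63, adjusted p = 0.0358).

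On day 7, 9 of the 28 target genes were higher under treatment and 2 lower, 39.3% of the list against 38.8% of all genes. LCN2, an iron-binding secreted protein gene, was at 327 and 440 CPM against 128 (log2 fold change 1.80, adjusted p = 0.000435). SQSTM1, an autophagy receptor gene, was at 1053 and 1441 CPM against 565 (1.36), PSMB9 and TAP1 of antigen processing rose by 1.42 and 0.68, C3 by 1.60, CSF2 by 1.56, GADD45B by 1.00, SDC4 by 0.69 and BCL2L1 by 0.44. KLF6 fell by 1.04 and LIF by 0.88. The effect on day 7 exceeded that on day 3 for 12 of the list and fell short of it for none. These were 42.9% of the list against 28.5% of all genes: CXCL1, CXCL3, CXCL8, IL6, CSF2, GADD45B, PLAU, PTGS2, LCN2, SDC4, SQSTM1 and PSMB9. The counts with library totals were 8 and 2. CXCL1, CXCL3, CXCL8, IL6, PLAU and PTGS2 did not pass on day 7 itself, and each was highest in the untreated day 3 library. For the list, no value with untreated day 0 in place of untreated day 3 was taken. With library totals 8 were called higher and 5 lower on day 7. Between the regimens, no gene of the list passed. Among genes with a mean of at least 10 CPM, 16 of 19 were higher under EE-TOPO on day 7 and 9 of 20 on day 3, with median log2 ratios of CPM of 0.28 and -0.05, and 0.01 over all genes on each day. IL6, at 3.49 and 13.4 CPM under CONV-TOPO and EE-TOPO on day 3 and at 3.71 and 14.4 CPM on day 7, lay below that level.

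The 10 genes of the route from DNA damage to IKK gave 1 higher and 5 lower on day 7, 60% of the list. ATM, the kinase that starts it, was at 18.8 and 16.1 CPM against 73.5 (log2 fold change -1.79, adjusted p = 0.000289). PARP1 was at 156 and 154 CPM against 283 (-0.63), ERC1 fell by 0.76, and TAB2 and XIAP, which also stand in the lists above, by the values given there. PIAS4, the SUMO ligase for IKBKG, rose by 0.97. With library totals 1 was called higher and 5 lower.

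**Figure D5:**
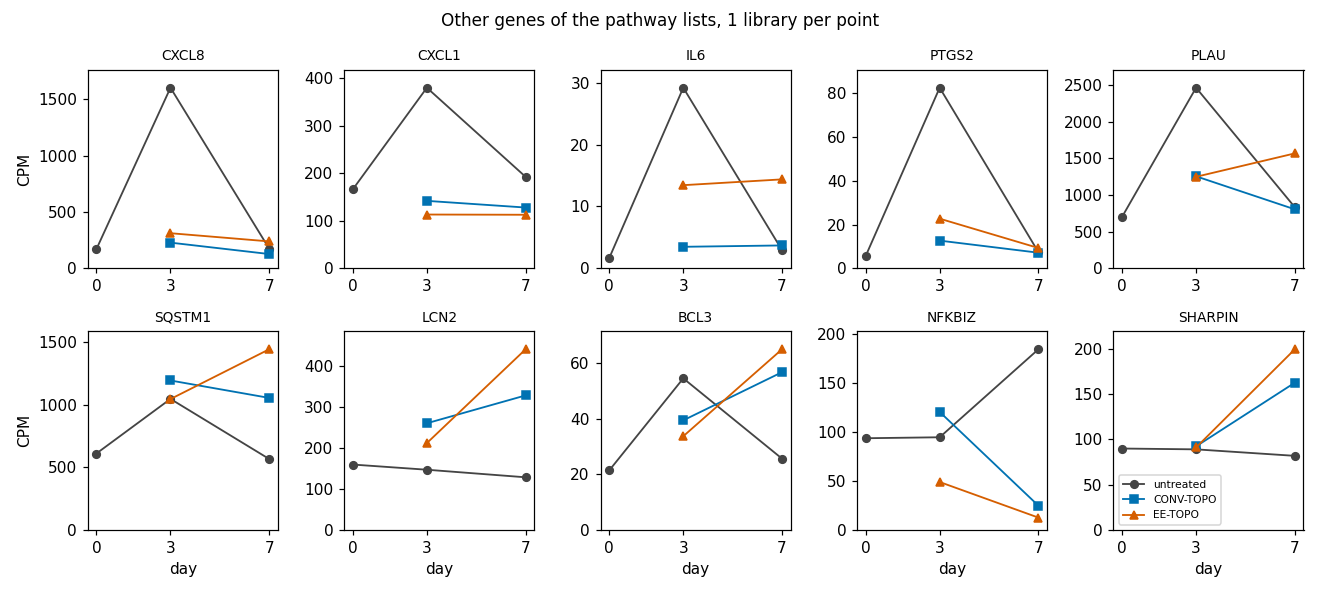
Level in CPM (vertical axes, from 0) by day of 10 genes of the pathway lists, with 1 library per point and the same symbols as for the members. CXCL8, CXCL1, IL6, PTGS2 and PLAU were highest in untreated day 3, while LCN2, BCL3 and SHARPIN were highest in the treated day 7 libraries.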

How the data were processed

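Total RNA of PC-3 spheroids was made into TruSeq RNA v2 libraries, and, per the study's methods, reads were aligned with STAR to hg38. Partek and hg38 are named in the submitters' processing notes. The counter, its annotation and its strand setting are not given in the sources used here, so reads of overlapping antisense genes cannot be told apart from those of a member (IER3 shares 440 exonic bases with IER3-AS1, ICAM1 815 with ICAM4-AS1). The authors deposited CPM (reads per 1000000 reads) with an offset of 0.0001 added, which was subtracted. Between 89.8% and 91.2% of low values fell on whole steps of 1 read (tolerance 0.05), which gave depth but no counts, so no count test was run.

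CPM was scaled by TMM, and log2(CPM + 1) was fitted with limma 3.58.1 in R 4.3.3 with a mean-variance trend. The 14836 genes with 0.528 CPM or more (10 reads in a library of median depth) in 2 or more of the libraries were tested. A first fit had treatment and day as terms; a second had a mean for untreated and for treated spheroids on each day. Each used 6 libraries and left 2 residual degrees of freedom. P-values were adjusted by Benjamini-Hochberg, with a threshold of 0.05. Fold changes on this scale understate those of low genes. Ratios of single libraries used CPM as deposited, exact conditional binomial 95% intervals (counting error only, reads without molecular identifiers) and a minimum mean of 10 CPM. Both fits were run on simulated data in which a small share of genes changed by the same fold in both regimens on both days. That setting cannot speak for a comparison with many genes changed, or for an effect that differs between days. Lengths for per-kilobase levels came from GENCODE v44.

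The members and lists were chosen with earlier results of these data known. Named were all members, the 3 most abundant genes of each list (6 of the other targets), each list gene that passed in a limma comparison, and the 5 genes most like NFKBIA. Coordinates are hg38 as deposited. Alternatives were other scalings, a pseudocount of 0.1 CPM, no filter, no trend, a correction for gene span, other sets of libraries, and a minimum of 50 CPM.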

Additional observations from a re-analysis of the deposited data

Results flagged for a closer look

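The effect of topotecan on day 7 differed from that on day 3, by the limma test of the difference itself, for 4 of the 10 members. The difference, on the log2 scale, was 2.13 for RELB, 1.59 for IER3, 1.14 for RELA and 1.13 for NFKB2. The 4 values share the same untreated day 3 and day 7 libraries. The change between these untreated libraries made up 71.5% of the difference for RELB, 64.6% for NFKB2, 43.6% for IER3 and 38.4% for RELA. As given above, RELB and NFKB2 did not pass with untreated day 0 in place of untreated day 3. On the TMM-scaled log2 values of that test, all 4 genes were lower on day 7 than on day 3 in the untreated arm and higher in both treated arms. On CPM as deposited, NFKB2 under CONV-TOPO had a day 7 to day 3 ratio of 0.958 (0.891 to 1.03, counting error). No group held more than 1 library, so no library could be compared with others of its own group.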

How the results depend on the processing

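The data hold 1 library per condition and day, so no test here measures the spread between cultures, and every contrast with untreated spheroids rests on 1 untreated library a day. No paired analysis was possible because the labels give no replicate numbers; libraries of the same day were matched by the day term of the additive fit. Leaving out 1 day of the fit with treatment and day as terms gave values with no test. The cause of the shifts below was not tested. With the 4 libraries of both treatments compared alone, the additive fit called 34 genes for EE-TOPO against untreated, 9 for CONV-TOPO against untreated, and 80 genes and 1 member (BIRC3) for EE-TOPO against CONV-TOPO, each 0 otherwise. On day 3, 2 genes were called, against 1 with a pseudocount of 0.1 CPM and 0 with no filter or no trend; without 1 treated library the range was 0 to 36 genes and 0 to 1 members (IER3). On day 7, 5 members were called, against 2 (RELB and RELA) with library totals, no filter, no trend or the trend with gene span removed, and 3 to 6 without 1 treated library, the lowest without EE-TOPO day 7 (NFKB2 and ICAM1 lost) and the highest without CONV-TOPO day 7 (NFKBIA and TNFAIP2 gained, IER3 lost at adjusted p = 0.0743). Without CONV-TOPO day 3 or EE-TOPO day 3 NFKB2 did not pass (adjusted p = 0.0559 and 0.0557). For the difference between days, 4228 genes were called, against 1877 with no filter and 2783 with no trend, and 1098 to 4162 without 1 treated library, where NFKB2 was lost without EE-TOPO day 3 (adjusted p = 0.0511). RELA was lost with no filter (0.0523). In that comparison the members called were 3 to 6 without 1 library.

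Alternatives with untreated day 0 in the place of another untreated library of the limma fits were chosen after seeing the data. In place of untreated day 3 they gave 686 genes and 4 members on day 3. The log2 fold change on day 3 then changed sign for NFKBIA (0.11), TNFAIP3 (1.04), NFKB1 (0.036), NFKB2 (0.54), RELA (0.0089), RELB (0.74) and BIRC3 (1.77). The difference between days changed sign for TNFAIP3 (-1.10), NFKB1 (-0.11), NFKB2 (-0.079), BIRC3 (-1.75), ICAM1 (-0.43) and TNFAIP2 (-0.039). In place of untreated day 7, 2612 genes differed between days and TNFAIP3 was at 0.48 on day 7. With untreated day 0 as the baseline of single-library ratios, 0 members were at least 2-fold lower on day 3 under CONV-TOPO and 0 under EE-TOPO, TNFAIP3 under CONV-TOPO had a ratio of 1.92, and 2 members were at least 2-fold higher under EE-TOPO on day 7. With that baseline IER3 on day 7 had ratios of 1.11 (1.08 to 1.15) under CONV-TOPO and 0.958 (0.926 to 0.991) under EE-TOPO. With TMM these were 1.24 and 1.04. BIRC3, near 0 in the limma fits, changed sign on day 3 with library totals (0.021) and with the span trend removed (0.020), on day 7 with library totals (-0.22) and with the span trend removed (-0.047), and for the difference with library totals (-0.24) and with the span trend removed (-0.067). Without 1 treated library BIRC3 ranged from -0.47 to 0.40 on day 3, from -0.33 to 0.36 on day 7 and from -0.39 to 0.49 for the difference. TNFAIP2 did so for the difference with library totals (-0.27) and with the span trend removed (-0.24), and ranged from -0.32 to 0.37 without 1 treated library. On day 7, NFKB1 was at 0.38 with the span trend removed and TNFAIP3 ranged from -0.34 to 0.22 without 1 treated library.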
